A study of Mus musculus with 2 samples.

Results

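Among LSK cells sorted from the spleen of tumour-bearing mice, 418 of 6546 belonged to the cluster that the study's authors named HSC-3, and 232 of these passed limits on dendritic labels and T-cell receptor RNA. The 232 cells are described below as the selected spleen HSC-3 cells. They were chosen by measured values: membership of the authors' cluster, a reference cell type label that does not name a dendritic cell, and fewer than 3 unique molecular identifiers (UMIs, counted RNA molecules) of Trbc1 and Trbc2 together, the constant segments of the T-cell receptor beta chain. Of the 186 spleen HSC-3 cells left out, 101 had a dendritic label and 85 were left out for their Trbc UMIs alone. Inside the limit, 206 cells had 0 Trbc UMIs, 24 had 1 and 2 had 2. Outside it, the nearest cells had 5 UMIs (4 cells) and 6 UMIs (3 cells), so no cell with an accepted label had 3 or 4. The same limits kept 1231 of the 1232 bone marrow HSC-3 cells and 3431 spleen cells of the other 7 clusters. The data set holds 16634 cells in all.

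The spleen library and the bone marrow library each came from C57BL/6 mice that carried a hepatoma: 750000 cells of the mouse line Hepa1-6 in a 25 µl drop of basement membrane extract at 50% had been placed in the left lobe of the liver at an age of 6 to 8 weeks. Both tissues therefore came from mice with a tumour, and no tumour-free group is analysed here. LSK cells, which carry few or no lineage antigens and stain for Sca1 and strongly for c-Kit, are the gate that holds blood stem cells and multipotent progenitors. Magnetic enrichment before the flow sort used lineage depletion or CD117 beads, and the labels do not tie either to a tissue. Each tissue gave 1 library of a droplet 3′ assay and the number of mice behind it is not stated, so no comparison below has a replicate check, none has a p-value, and library and tissue cannot be told apart.

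HSC-3 is marked by replication-dependent histone genes. These genes supply the H1, H2A, H2B, H3 and H4 proteins that package newly copied DNA, and cells make most of their message during S phase. Most of that message ends in a stem-loop and carries no poly(A) tail, whereas a droplet 3′ assay primes on poly(A), so the counts below sample histone message incompletely. Neil3, the other marker, encodes a DNA glycosylase that removes oxidised bases and helps to resolve DNA crosslinks in dividing cells.

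The proximal promoters of the marker genes are shown because they carry short boxes that histone genes share. Each run is 120 bases, written 5′ to 3′ on the gene's strand and ending at the base before the more upstream of the starts given by the RefSeq promoter table (GRCm38.p6) and by GENCODE. Capitals mark CCAAT, the site of the factor NF-Y, on either strand (ATTGG where reversed), and TATAAA, the TATA box. The intervals are chr13:21780626-21780745 on the minus strand for Hist1h1b (H1f5), chr13:23745603-23745722 on the minus strand for Hist1h3c (H3c3), chr13:23750968-23751087 on the plus strand for Hist1h2ab (H2ac4), chr13:21833508-21833627 on the minus strand for Hist1h2ap (H2ac24), and chr8:53639066-53639185 on the minus strand for Neil3.
Hist1h1b: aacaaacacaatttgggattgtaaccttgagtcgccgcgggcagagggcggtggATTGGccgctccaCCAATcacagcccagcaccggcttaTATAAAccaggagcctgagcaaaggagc
Hist1h3c: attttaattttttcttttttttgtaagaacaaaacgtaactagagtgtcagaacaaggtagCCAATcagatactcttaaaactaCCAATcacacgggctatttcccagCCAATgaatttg
Hist1h2ab: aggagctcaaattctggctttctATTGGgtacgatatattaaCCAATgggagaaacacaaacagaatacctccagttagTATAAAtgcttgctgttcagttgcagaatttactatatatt
Hist1h2ap: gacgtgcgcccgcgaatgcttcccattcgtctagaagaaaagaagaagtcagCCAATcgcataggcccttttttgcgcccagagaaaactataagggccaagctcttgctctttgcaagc
Neil3: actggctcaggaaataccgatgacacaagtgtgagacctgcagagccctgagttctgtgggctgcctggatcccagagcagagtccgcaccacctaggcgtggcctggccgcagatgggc

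Over the 300 bases that RefSeq's table gives for each gene (250 before the start and 50 after it), CCAAT on either strand was present in 50 of the 59 replication-dependent histone genes that matched the table (84.7%), against 37.4% of all 32851 promoters. All matched H1, H2A, H2B and H3 genes held it, and 3 of 12 H4 genes did. The octamer ATGCAAAT, the site of OCT1, was present in 12 of the 59 (20.3%) against 1.74% of all promoters, and was found in H2A and H2B genes. TATAAA was present in 33 of the 59 (55.9%) against 13.6%. The Neil3 window above held none of these letters. A match is a description of the sequence only.

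The selected spleen HSC-3 cells were deeply counted. They held 3828992 UMIs, with a median of 15050.5 per cell (range 3941 to 55577) and 4232.5 genes per cell, against 13196265 UMIs, a median of 9929 (2662 to 30932) and 3388 genes in bone marrow HSC-3 cells. The medians of the whole libraries were 9978 in spleen and 5991 in bone marrow. Levels are given in CPM, a gene's UMIs summed over the cells of a group and scaled to the same total in every group, and ratios as selected spleen HSC-3 cells over the comparison. Intervals in brackets are exact 95% intervals for counting error only. A gene was called higher or lower at a difference of at least 1.5-fold after adding 1 CPM to both levels, where the mean of both levels reached 10 CPM. Of all barcodes, 16 occurred in both libraries, 1 of them among the selected spleen cells.

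All 232 cells carried the histone programme by which the cluster is known. Replication-dependent histone genes took a median of 1.42% of a cell's UMIs in the selected spleen HSC-3 cells (lowest 0.440%, highest 2.78%), against 1.38% in bone marrow HSC-3 cells (0.287% to 3.42%). The spleen HSC-3 cells that were left out had a median of 1.30%. In spleen HSC-1 the median was 0.0752%, in spleen HSC-2 0.0685%, and in spleen MEP, the next in order, 0.416%. Because the clusters were made from these cells' genes, the distance from other clusters is a description of how the cluster was drawn.

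**Figure D1:**
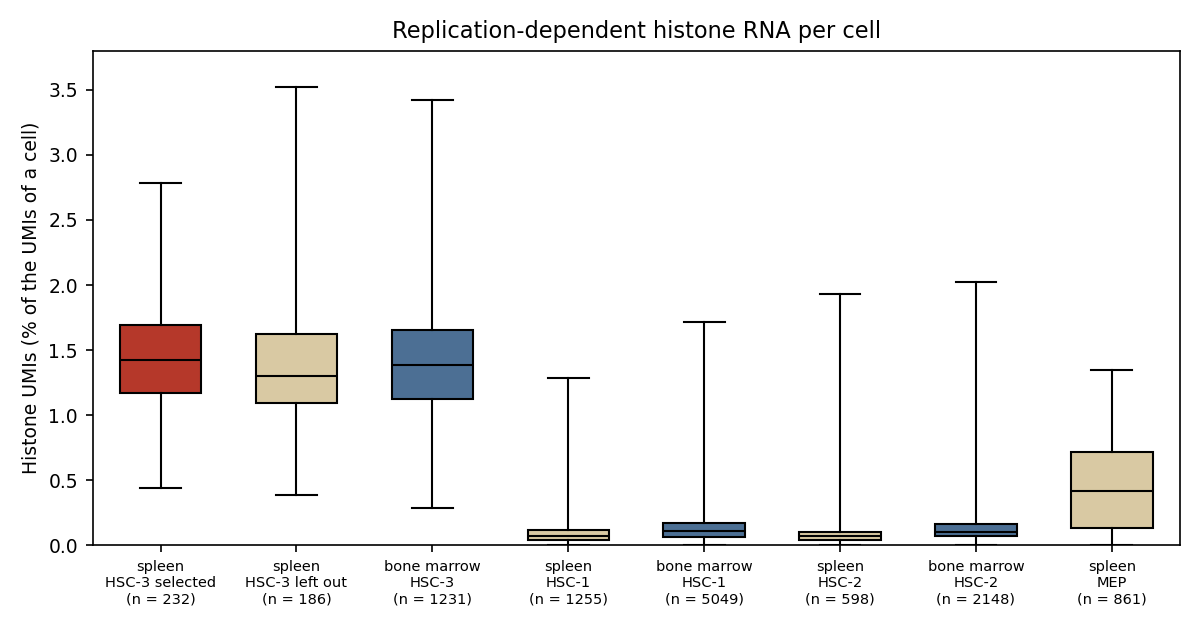
Share of each cell's UMIs in replication-dependent histone genes (%) by group. Boxes span the quartiles, the line in each is the median, and whiskers run to the lowest and highest cell. The selected spleen HSC-3 cells (median 1.42%) and bone marrow HSC-3 cells (1.38%) overlap over nearly their whole range, and lie above most cells of HSC-1 and HSC-2 in both tissues.

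The linker histone gene Hist1h1b (chr13:21779883-21780625, minus strand) had 5 to 176 UMIs per selected spleen HSC-3 cell, with a median of 33, against 0 to 92 with a median of 20 in bone marrow HSC-3. Summed, its level was 2254 CPM in selected spleen HSC-3, 1977 CPM in bone marrow HSC-3 and 553 CPM in the other spleen cells. On the CPM scale, which takes out depth, the ratio over bone marrow HSC-3 was 1.14 [1.11, 1.17]. Hist1h3c (chr13:23744973-23745602, minus strand), which encodes a replication-dependent H3, had a median of 17 UMIs (0 to 80) in the selected spleen cells and 14 (0 to 42) in marrow. Its summed level was 1101 CPM in selected spleen HSC-3, 1358 CPM in bone marrow HSC-3 and 199 CPM in the other spleen cells. It was thus slightly below the marrow level, whereas Hist1h1b was slightly above it. Hist1h2ab (chr13:23751126-23751598, plus strand), an H2A gene, had 441 CPM in selected spleen HSC-3, 365 CPM in bone marrow HSC-3 and 73.6 CPM in the other spleen cells. Neil3 (chr8:53586867-53639065, minus strand) had 136 CPM in selected spleen HSC-3, 155 CPM in bone marrow HSC-3 and 14.0 CPM in the other spleen cells. At least 1 UMI of Neil3 was seen in 81.9% of the selected spleen cells and 76.5% of bone marrow HSC-3 cells. After every cell was thinned to 3700 UMIs the shares were 40.9% and 45.4%, so at equal depth the order of the shares turned round. Neil3 was also seen in 64.6% of the 48 spleen DCP cells and 36.0% of the 861 spleen MEP cells, and in 1 of 110 spleen MP cells.

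The given markers did not separate the tissues within HSC-3 at 1.5-fold: log2 ratios over bone marrow HSC-3 were 0.19 for Hist1h1b, -0.30 for Hist1h3c, 0.27 for Hist1h2ab and -0.19 for Neil3. In HSC-1 and HSC-2 the histone markers were lower in the spleen, and in MEP they were higher. The log2 ratio of spleen HSC-1 over bone marrow HSC-1 was -1.02 for Hist1h1b and -1.84 for Hist1h3c, and that of spleen HSC-2 over bone marrow HSC-2 was -0.90 and -1.16. In spleen MEP over bone marrow MEP it was 0.54 for Hist1h1b, 0.55 for Hist1h3c and 0.94 for Hist1h2ab. The difference between clusters has no test with 1 library per tissue.

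Cell cycle phase, scored on cells thinned to 3700 UMIs with the published S and G2/M gene sets, gave no selected spleen HSC-3 cell in G1 (0 of 232, an upper limit of 1.58%) and none among 1227 bone marrow HSC-3 cells. S phase calls made up 30.2% of the selected spleen cells [24.3, 36.5] and 29.0% of bone marrow HSC-3 [26.5, 31.6], and G2/M calls made up the rest. Of spleen HSC-1 cells, 80.0% were called G1. Within the selected spleen HSC-3 cells, those called S and those called G2/M had nearly the same histone share, 1.43% and 1.42%. Spleen HSC-2 cells called S had a median of 0.0631%, so an S call alone did not carry the histone level of HSC-3. Hist1h1b was at 2547 CPM in the S calls and 2114 CPM in the G2/M calls of the selected spleen cells, while Hist1h3c was at 951 and 1173 CPM, and Neil3 at 94.2 and 156 CPM.

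Against bone marrow HSC-3, 49 replication-dependent histone genes were measured in the selected spleen cells: 1 was higher and 5 were lower. Over all 8492 genes measured in this comparison, 4.51% (383) were higher and 7.1% (603) were lower, and the median log2 ratio was -0.04. The histone counts stand close to those shares. By class, the median log2 ratio was -0.06 over 5 H1 genes, -0.06 over 12 H2A genes, -0.36 over 15 H2B genes, -0.26 over 9 H3 genes and -0.18 over 8 H4 genes. Those class medians kept their sign when the scaling was changed to trimmed means, but H1 and H2A lie within 0.1 of the median gene.

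The single histone gene that was higher was Hist1h2ap, an H2A gene of the large cluster on chromosome 13. It had a median of 12 UMIs (0 to 46) per selected spleen HSC-3 cell and 4 (0 to 16) per bone marrow HSC-3 cell. Its level was 772 CPM against 396 CPM, a ratio of 1.95 [1.86, 2.04], and it was seen in 91.8% of selected spleen cells and 75.6% of marrow cells at equal depth. The difference was present within each of the 3 commonest reference labels described below, with log2 ratios of 0.97, 1.09 and 0.90. In HSC-1 and HSC-2 the spleen level of Hist1h2ap was below the marrow level, with log2 ratios of -0.43 and -0.32. Hist1h2ae, another H2A gene, was at 1654 CPM in the selected spleen cells and 1179 CPM in bone marrow HSC-3, a ratio of 1.40 that stays under 1.5-fold. The Hist1h2a genes encode nearly identical proteins from closely similar sequence, so the assignment of reads among them is uncertain.

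Lower in the selected spleen cells were the paired genes Hist3h2ba (38.7 CPM against 114 CPM, log2 ratio -1.53) and Hist3h2a (23.8 CPM against 57.9 CPM, -1.25), which lie together on chromosome 11, away from the large histone clusters. Hist1h2bc and Hist1h4f were also lower, at log2 ratios of -0.81 and -0.79, and so was Hist2h2be at -0.61. Among histone variants made outside replication, H2afy, which encodes macroH2A1, was lower in the selected spleen cells (923 CPM against 1619 CPM, log2 ratio -0.81), and the remaining 9 of 10 measured genes were within 1.5-fold. With the reference labels held the same, H2afy differed by -0.58, -0.27 and -0.23, all within 1.5-fold.

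The genes that copy DNA were at marrow levels. In the list of replication licensing and fork proteins, 1 of 43 measured genes was higher and 1 lower, with a median log2 ratio of -0.07. Pcna, the sliding clamp of DNA polymerase, was at 126 CPM in the selected spleen cells and 145 CPM in bone marrow HSC-3, and Mcm5, a helicase subunit, at 106 CPM and 93.5 CPM. None of 25 genes of S phase repair and chromatin, and none of 15 genes that make or place histones, reached 1.5-fold. Slbp, which binds the histone stem-loop, was at 151 CPM against 172 CPM. Of 30 genes of mitosis, Ccnb1 alone was higher (69.2 CPM against 44.4 CPM), and Mki67, a marker of cycling cells, was at 1081 CPM against 1292 CPM. Nucleotide supply differed more: 5 of 19 genes were higher and 1 lower, among them Nme1, a nucleoside diphosphate kinase (264 CPM against 130 CPM), and Ctps, the CTP synthase (32.6 CPM against 16.8 CPM). Over the 204 selected spleen cells left by the narrower choice of cells described below, 2 of 19 were higher and none was lower, and Nme1 was within 1.5-fold (190 CPM against 130 CPM).

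The reference labels deposited for each cell split the 2 tissues' HSC-3 cells differently. A fetal liver stem and progenitor label was carried by 125 selected spleen HSC-3 cells (53.9%) and 589 bone marrow HSC-3 cells (47.8%). A megakaryocyte progenitor label was carried by 45 (19.4% [14.5, 25.1]) and 81 (6.58% [5.26, 8.11]). A Ctla2a-high multipotent progenitor label was carried by 39 (16.8% [12.2, 22.3]) and 556 (45.2% [42.4, 48.0]). These 3 labels covered 90.1% of the selected spleen cells and 99.6% of the marrow cells. The remainder in spleen included 8 erythrocyte progenitor labels, 3 pro-erythroblast labels, 3 macrophage labels and 3 proliferating thymocyte labels, and none of the first 3 kinds occurred in bone marrow HSC-3. The intervals count cells of 1 library each, and the spread between mice is not known.

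**Figure D2:**
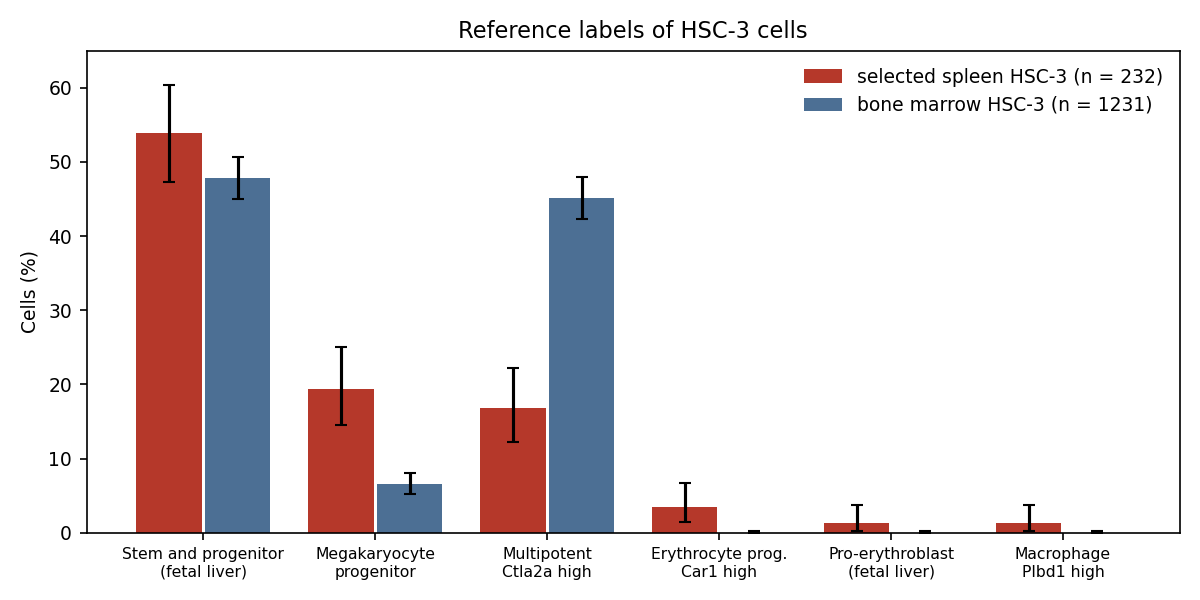
Share of HSC-3 cells (%) with each reference label in the selected spleen HSC-3 cells (232) and bone marrow HSC-3 (1231), with exact 95% binomial intervals. The multipotent progenitor label covers 16.8% of the selected spleen cells and 45.2% of marrow cells, and the megakaryocyte progenitor label 19.4% and 6.58%.

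The second reference also split the tissues differently: its HSC-2 label covered 89 selected spleen cells (38.4%) and 146 marrow cells (11.9%), its HSC-1 label 39 (16.8%) and 552 (44.8%), and its HSC-3 label 75 (32.3%) and 486 (39.5%). It gave few megakaryocyte progenitor labels in either tissue, with MkP-1 on 3 selected spleen cells (1.29%) and 7 marrow cells (0.569%), and MkP-2 on 0 and 6. Labels and expression come from the same RNA, so the labels are no separate measurement of the genes below.

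The RNA of lymphoid priming was lower in the selected spleen HSC-3 cells than in bone marrow HSC-3. Of 16 measured genes of lymphoid progenitors, 8 were lower and 2 higher, with a median log2 ratio of -0.67. Without the Trbc limit on the cells kept, that median was 0.048. Flt3, the receptor tyrosine kinase of multipotent and lymphoid-primed progenitors, had a median of 1 UMI (0 to 12) per selected spleen cell and 3 (0 to 17) per marrow cell. Its level was 100 CPM against 307 CPM, 3.06-fold lower [2.76, 3.41]. At equal depth it was seen in 31.9% and 64.7% of cells. Spleen MEP cells, of which 83.3% had Gata1 and whose median depth was 36090 UMIs, showed Flt3 in 6.16% as deposited, so the share in the selected cells lies above that level. Within labels the log2 ratio was -1.52 for the stem and progenitor label, -1.64 for the megakaryocyte progenitor label and -0.46 for the multipotent label. The difference was thus under 1.5-fold within the multipotent cells.

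Dntt, the terminal transferase that adds bases at antigen receptor joints, was at 39.4 CPM in the selected spleen cells and 172 CPM in bone marrow HSC-3, and 11 spleen cells held 94% of its UMIs. Without the Trbc limit, its log2 ratio went to 0.03, so its low level rests on which cells were kept. Ighm, the immunoglobulin heavy chain constant gene that is transcribed before rearrangement, was at 39.4 CPM against 128 CPM, and Notch1, a receptor that drives T-cell commitment, at 38.9 CPM against 116 CPM. Il7r, the interleukin 7 receptor, was higher over all selected spleen cells (27.2 CPM against 10.5 CPM), with 94.2% of its UMIs in 11 cells. Among cells with the 3 common labels its log2 ratio was -0.16.

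Granulocyte and monocyte genes were lower too: 8 of 19 measured genes were lower and 1 higher, with a median log2 ratio of -0.42. Mpo, the granule peroxidase, was at 76.5 CPM in the selected spleen HSC-3 cells and 304 CPM in bone marrow HSC-3, and was seen in 25.9% and 57.3% of cells. Elane, neutrophil elastase, was at 1.83 CPM against 19.8 CPM, with 7 cells holding its spleen UMIs. The receptor gene Csf3r was at 9.14 CPM against 23.7 CPM. The transcription factor genes Cebpa (15.9 CPM against 24.0 CPM) and Spi1 (116 CPM against 156 CPM) were within 1.5-fold on the log2 scale used. The exception was Nkg7, a granule protein gene of cytotoxic lymphocytes that early progenitors also transcribe, at 191 CPM against 85.4 CPM. It was seen in 78.4% of selected spleen cells, at log2 ratios of 1.38, 1.35 and 1.06 within the 3 labels. Of 20 cytokine receptor genes, 16 were measured, of which 6 were lower and 1 was higher, with a median of -0.46. Granulocyte and monocyte genes were lower than marrow in spleen HSC-2 as well, with 13 of 27 lower and none higher (median -0.54). In HSC-1, 5 of 20 were lower and 4 higher (0.18). Over all measured genes, 201 of 8485 were lower and 124 higher in HSC-2. In HSC-1, 202 of 8714 were lower and 177 higher. Mpo was at 338 CPM in spleen HSC-2 against 1788 CPM in marrow HSC-2, and at 33.5 CPM against 102 CPM in HSC-1.

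Over all selected cells, immediate early and NF-kB target genes had the lowest median of the 27 gene lists, at -0.68, with 11 of 20 measured genes lower and 1 higher. The chemokine genes Ccl3 (14.1 CPM against 97.4 CPM) and Ccl4 (20.1 CPM against 100 CPM) had the lowest log2 ratios of all genes named by the rule for the extremes, at -2.70 and -2.26. Ccl3 was seen in 9.48% of the selected spleen cells and 36.0% of bone marrow HSC-3 cells. Egr1, an immediate early factor that also keeps stem cells quiescent, was at 76.0 CPM against 188 CPM. Nfkbiz, an NF-kB cofactor, was at 16.7 CPM against 51.8 CPM. The spleen level of Ccl3 and Ccl4 was also below marrow in HSC-1 (-1.39 and -1.11) and in HSC-2 (-1.47 and -1.73).

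**Figure D3:**
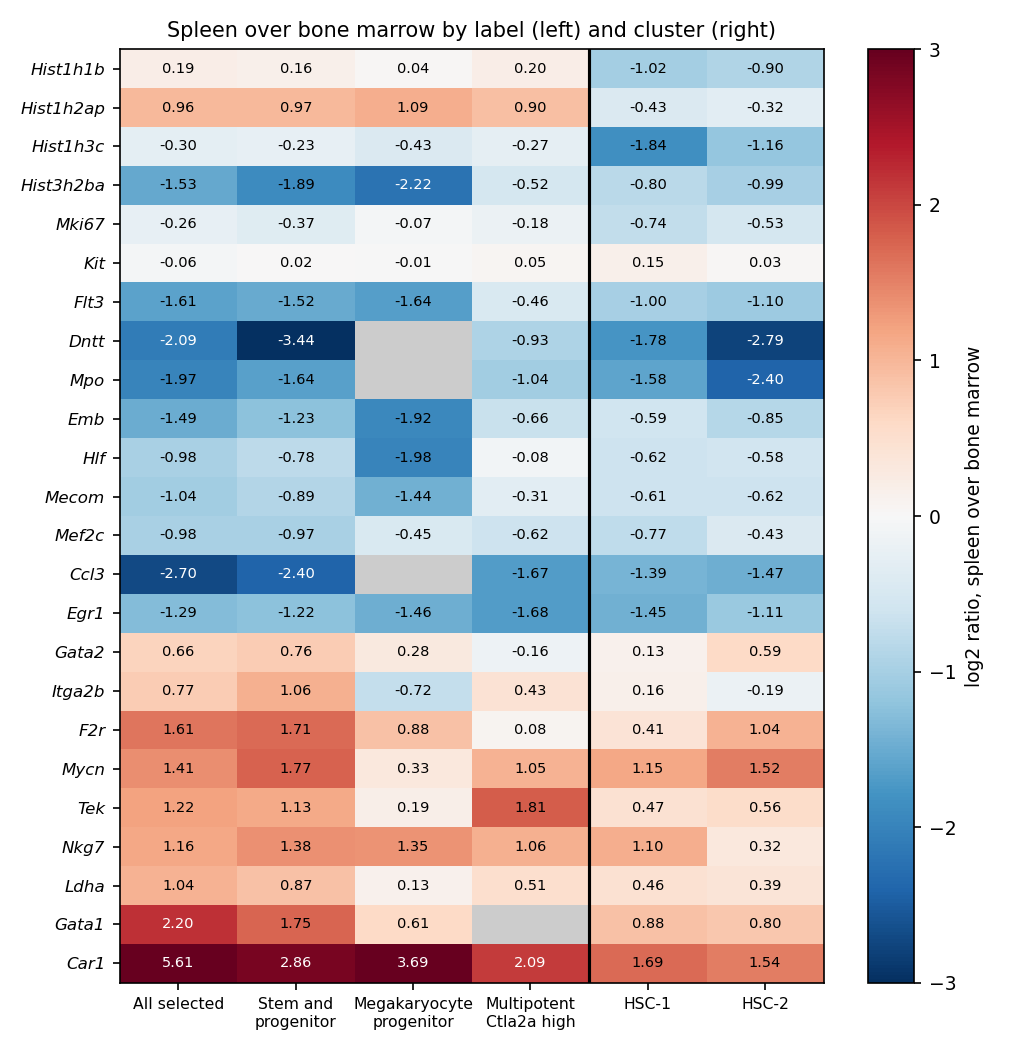
Log2 ratio of spleen over bone marrow for named genes (rows), over all selected spleen HSC-3 cells, within each of the 3 commonest labels, and in HSC-1 and HSC-2. Colours stop at -3 and 3, and grey squares have 3 or fewer UMIs in 1 of the sums. Flt3 is negative in every column shown, and Hist1h2ap is positive in the HSC-3 columns and negative in HSC-1 and HSC-2.

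Stem cell genes split. Of 33 measured, 9 were lower and 4 higher than in bone marrow HSC-3, with a median of -0.25. Over the 204 selected spleen cells and 1226 marrow cells of the 3 common labels without cells rich in MHC class II or mast cell RNA, 5 were lower and 7 higher (median -0.11). Hlf, a transcription factor of stem cells, had a median of 2 UMIs (0 to 18) in the selected spleen cells and 3 (0 to 23) in marrow cells, and levels of 176 CPM against 348 CPM. Mecom, which encodes EVI1, was at 43.9 CPM against 91.5 CPM, and Hmga2, a chromatin protein of self-renewing fetal stem cells, at 32.6 CPM against 71.9 CPM. Those 3 genes kept to within 1.5-fold among cells with the multipotent label, at -0.08 for Hlf, -0.31 for Mecom and -0.24 for Hmga2, and were lowest among cells with the megakaryocyte progenitor label, at -1.98, -1.44 and -2.05. The sort markers were alike: Kit was at 242 CPM against 253 CPM (ratio 0.956 [0.888, 1.03]) and Ly6a, which encodes Sca1, at 40.5 CPM against 44.0 CPM.

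Higher in the selected spleen cells were Gata2, a factor of stem cells and mast and megakaryocyte progenitors (194 CPM against 122 CPM), Mycn, a factor of the MYC family (47.0 CPM against 17.1 CPM), the angiopoietin receptor gene Tek (14.9 CPM against 5.83 CPM) and Slamf1, which encodes CD150 (14.1 CPM against 6.82 CPM). Mycn was seen in 44.8% of the selected spleen cells and 14.9% of marrow cells, or 21.1% and 5.62% at equal depth. Its spleen level was above marrow in HSC-1 (1.15) and HSC-2 (1.52) as well. The authors' stemness score, whose genes and scale are not given in the sources used here, had a median of 0.386 in the selected spleen cells and 0.169 in bone marrow HSC-3. Within the 3 labels the medians were 0.426 against 0.187, 0.366 against 0.171 and 0.269 against 0.15. Across clusters the score was highest in MEP, with medians of 1.10 in spleen and 0.547 in bone marrow, and was 0.000844 in spleen HSC-1 and -0.0784 in bone marrow HSC-1. Hlf ran the other way in spleen, at 3.70 CPM in MEP and 438 CPM in HSC-1, so a higher score is not read as more stem cell RNA.

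Megakaryocyte genes were higher in part: 5 of 12 measured were higher and 2 lower, with a median of 0.33. Itga2b, which encodes the platelet integrin CD41, had a median of 1 UMI per selected spleen cell and 0 per marrow cell, and levels of 72.3 CPM against 42.0 CPM. The thrombin receptor gene F2r was at 72.9 CPM against 23.2 CPM (ratio 3.14 [2.66, 3.71]). Cavin2, a caveolar protein gene of platelets, was at 46.5 CPM against 10.1 CPM. F2r was higher within the stem and progenitor label (1.71) and the megakaryocyte progenitor label (0.88), and Cavin2 likewise (2.41 and 0.67). Itga2b was higher within the stem and progenitor label (1.06) and lower within the megakaryocyte progenitor label (-0.72). Pf4, the platelet chemokine, was lower in sum (42.6 CPM against 67.4 CPM) although it was seen in 20.3% of the selected spleen cells and 11.9% of marrow cells. A single marrow cell held up to 138 Pf4 UMIs and a single spleen cell up to 57. After thinning to equal depth its log2 ratio over all selected cells was 0.06. Among cells with the megakaryocyte progenitor label, Pf4 had 71 UMIs in 45 spleen cells and 735 UMIs in 81 marrow cells. Cells with the stem and progenitor label held 33 Pf4 UMIs (125 spleen cells) and 102 (589 marrow cells). Mef2c, a factor of megakaryocyte and lymphoid cells, was lower at 242 CPM against 476 CPM.

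Over all selected cells, the erythroid genes had the highest median of the 27 gene lists. Of 19 measured, 13 were higher and none was lower than in bone marrow HSC-3, with a median of 0.86, against shares of 4.51% higher and 7.1% lower over all genes. Car1, carbonic anhydrase 1, was at 278 CPM against 4.70 CPM, the metallothionein genes Mt1 at 204 CPM against 17.3 CPM, and Mt2 at 77.6 CPM against 1.82 CPM. Those sums rest on few cells: the 11 cells with an erythrocyte progenitor or pro-erythroblast label held 85.8% of the Car1 UMIs and 80.6% of the Mt1 and Mt2 UMIs. Their median UMI counts were 37245.5 and 45321 per cell, well above the median of 15050.5, and the doublet caller marked none of them. In the other 221 selected spleen cells Car1 was at 44.3 CPM.

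Car1 was also seen in spleen cells of other lineages. Thinned to equal depth, Car1 was seen in 13.4% of the selected spleen cells (median depth 15050.5 UMIs), 97.0% of spleen MEP cells, and 4.81% of spleen MP cells (median depth 10026.5 UMIs), a cluster rich in Cd74 (18787 CPM). In bone marrow HSC-3 it was seen in 1.71%. How much of the Car1 in the other 221 cells came from free RNA was not tested.

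Gata1, the master factor of erythroid and megakaryocyte cells, was spread more widely. It was at 30.0 CPM in the selected spleen HSC-3 cells and 5.76 CPM in bone marrow HSC-3, a ratio of 5.21 [3.87, 7.06], and was seen in 25.0% and 5.04% of cells, or 9.48% and 1.71% at equal depth. As deposited, it was seen in 1.82% of spleen MP, 1.96% of LP and 2.31% of HSC-1 cells. The share was 10.8% in spleen MCP, 13.9% in HSC-2, 14.6% in DCP and 83.3% in MEP. Outside the 11 erythroid-labelled cells the level was 24.3 CPM. Within the stem and progenitor label the log2 ratio was 1.75 and within the megakaryocyte progenitor label 0.61. The 39 multipotent-labelled spleen cells had 0 Gata1 UMIs, and the 556 of bone marrow had 10 (1.65 CPM). Those counts are too low to set the tissues apart within that label. Gata1 was above marrow in spleen HSC-2 (16.1 CPM against 8.86 CPM) and spleen HSC-1 (4.1 CPM against 1.77 CPM) as well. Over the selected cells Gfi1b, a repressor that acts with GATA1, was at 67.1 CPM against 22.9 CPM. Klf1, the erythroid factor, was at 18.8 CPM against 0.909 CPM, and 59.7% of its spleen UMIs were in the 11 cells. The authors' erythroid score had a median of 0.236 against 0.0978, and their myeloid score -0.196 against -0.0116. By label, the myeloid score was -0.111 against -0.0321 (stem and progenitor) and -0.378 against -0.274 (megakaryocyte progenitor). For the multipotent label it was above marrow, at 0.144 against 0.0471.

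With the comparison restricted to cells of the 3 common labels without those rich in MHC class II or mast cell RNA, 204 selected spleen cells and 1226 marrow cells remained. Of all 8465 genes measured in these cells, 239 were higher and 470 lower, with a median log2 ratio of -0.03. The erythroid list then had 7 of 17 genes higher and none lower (median 0.45), and the megakaryocyte list 6 higher and 2 lower of 12 (0.54). The lymphoid list had 1 higher and 9 lower of 15 (-0.79). Flt3 was at 111 CPM against 307 CPM, Gata1 at 25.5 CPM against 5.79 CPM, and F2r at 82.8 CPM against 23.2 CPM. The Trbc limit still applied to these cells. Without that limit the median of the lymphoid list was 0.048 over cells of all accepted labels, so the lymphoid counts depend on which cells were kept. With both tissues' cells weighted by the label shares of the selected spleen cells, the counts were 172 higher and 378 lower of 8477 measured genes. The erythroid list was above marrow in other clusters too. In spleen HSC-2 over marrow HSC-2, 5 of its 17 genes were higher and none lower (0.41), against 124 of all 8485 genes higher. In HSC-1, 4 of 14 were higher and none lower (0.16), against 177 of all 8714. The megakaryocyte list had medians of -0.01 in HSC-2 and 0.10 in HSC-1.

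**Figure D4:**
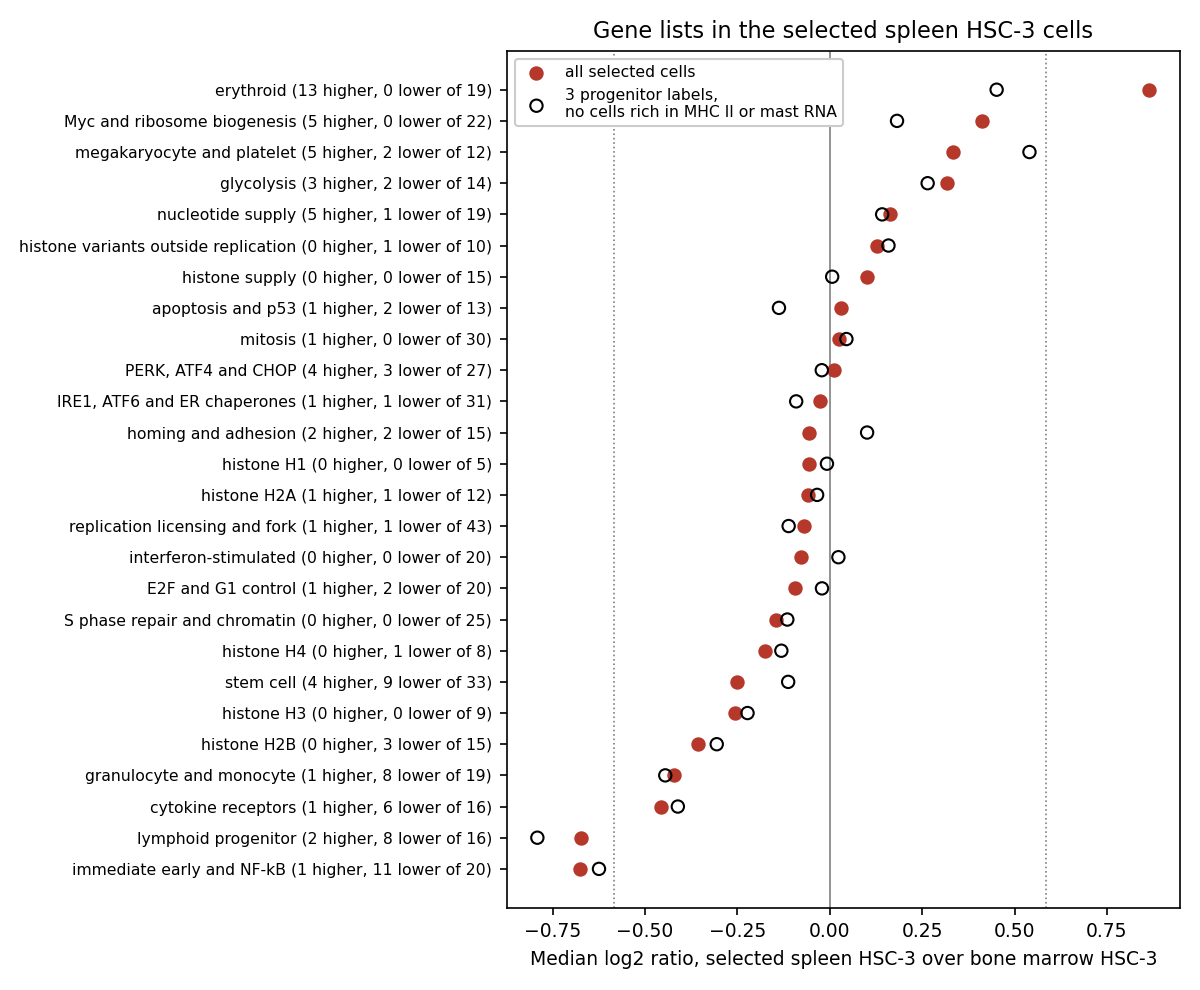
Median log2 ratio of each gene list, selected spleen HSC-3 over bone marrow HSC-3, for all selected cells (filled) and for cells of the 3 common labels without cells rich in MHC class II or mast cell RNA (open), with counts of higher and lower genes; dotted lines mark 1.5-fold. Over all selected cells the erythroid list is highest (0.86) and the immediate early list lowest (-0.68), and over the narrower set the megakaryocyte list (0.54) lies above the erythroid list (0.45).

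The selection did not remove all RNA of immune lineages. Cd74, H2-Aa, H2-Ab1 and H2-Eb1, the MHC class II genes of antigen-presenting cells, were among the highest ratios over bone marrow HSC-3: Cd74 was at 354 CPM against 13.4 CPM and H2-Aa at 206 CPM against 11.7 CPM. In 6 of the 232 cells the 4 genes summed to between 118 and 808 UMIs, and these cells held 81.5% of all MHC class II UMIs of the selected spleen cells. Of the 6, 3 carried a macrophage label and 3 the stem and progenitor label, and 2 of the stem-labelled cells were called doublets. The other 226 cells had 0 to 13 UMIs with a median of 3, or 181 CPM. That compares with 83.1 CPM in bone marrow HSC-3 and with 101 CPM in the 842 spleen MEP cells that held under 100 UMIs. At equal depth, at least 1 UMI of the 4 genes was seen in 51.7% of the selected cells and 24.6% of bone marrow HSC-3. The share was 57.1% in spleen HSC-1, 48.3% in spleen HSC-2 and 35.5% in spleen MEP, so that of the selected cells lay within their range. The MHC class II level of the selected cells depends on the rule, since the spleen HSC-3 cells that it left out had 22454 CPM.

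Mast cell RNA showed the same pattern. Mcpt4, Cma1, Tpsb2, Cpa3 and Gzmb together had at least 1 UMI in 55.2% of the selected spleen cells and 7.80% of bone marrow HSC-3. They were also seen in 59.7% of spleen MEP and 51.0% of spleen HSC-2 cells, and at equal depth in 18.1% of the selected cells, 15.2% of MEP and 25.2% of HSC-2. The share in the selected spleen cells lay within the range of the other spleen clusters, so no mast cell expression is read from it. In 4 of the 232 cells these genes reached 20 UMIs or more: 1 cell had a basophil label, 1 a mast cell label and 2 the stem and progenitor label. T-cell receptor RNA was near 0 by selection, with 14 Trbc2 UMIs in all. Over the marker lists, T, NK and innate lymphoid genes summed to 264 CPM in the selected spleen cells and 128 CPM in bone marrow HSC-3, of which Nkg7 made up most, and 3 of 14 were at 0. Dendritic cell genes summed to 1654 CPM in the selected spleen cells and 732 CPM in bone marrow HSC-3, with 2 of 14 at 0, and erythroid marker genes to 1015 CPM in the selected spleen cells and 616 CPM in bone marrow HSC-3, with 1 of 10 at 0. B-cell genes summed to 73.1 CPM in the selected spleen cells and 167 CPM in bone marrow HSC-3, and neutrophil genes to 9.14 CPM in the selected spleen cells and 40.4 CPM in bone marrow HSC-3, with 7 of 8 at 0 in the selected spleen cells.

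**Figure D5:**
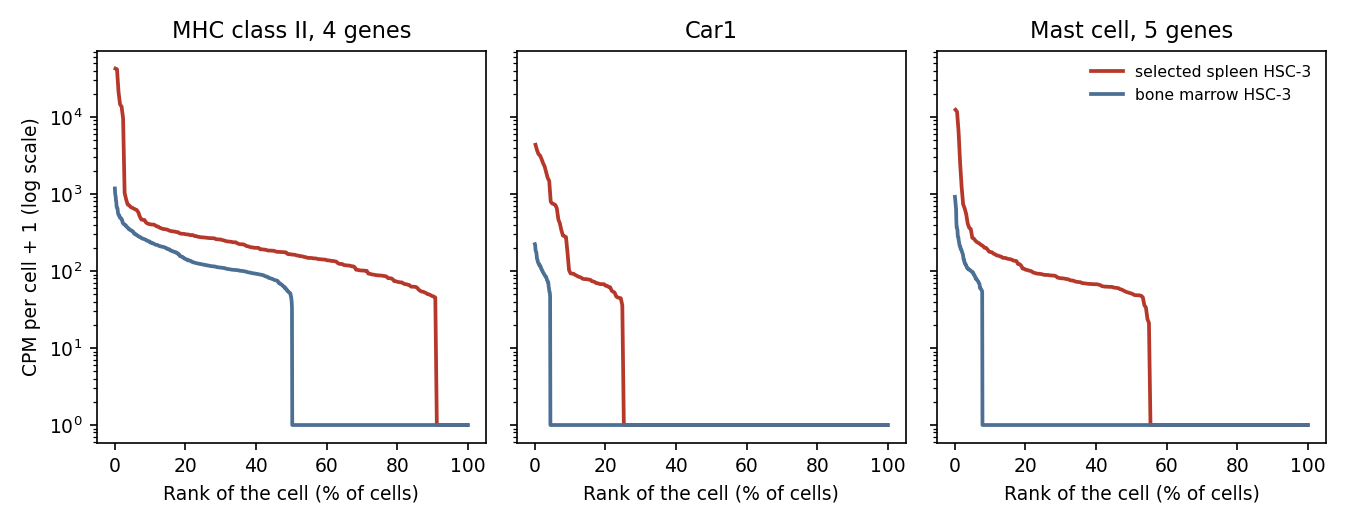
CPM per cell plus 1 (log axis) of MHC class II genes, mast cell genes and Car1, with cells ranked from high to low, for the selected spleen HSC-3 cells and bone marrow HSC-3. A few spleen cells stand at the top of each curve: 6 cells held 81.5% of the MHC class II UMIs.

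Genes of growth and metabolism were somewhat higher in the selected spleen cells. Of 22 genes of Myc and ribosome biogenesis, 5 were higher and none lower (median 0.41), and over the 204 cells described above 2 were higher (0.18). Srm, spermidine synthase, was at 112 CPM against 46.8 CPM, and Myc itself at 71.8 CPM against 61.5 CPM. Ldha, lactate dehydrogenase A, was at 394 CPM against 191 CPM and was above marrow within the stem and progenitor label (0.87), with smaller values in the other labels (0.13 and 0.51). Of 14 glycolysis genes, 3 were higher and 2 lower.

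Most measured genes of the unfolded protein response were within 1.5-fold of marrow, while the authors' ER stress score was higher than in marrow. Of 27 measured genes of the PERK, ATF4 and CHOP branch, 4 were higher and 3 lower (median 0.01), and of 31 genes of the IRE1 and ATF6 branches and ER chaperones, 1 was higher and 1 lower (-0.03). Eif2ak3, which encodes PERK, was at 8.88 CPM in the selected spleen HSC-3 cells and 10.1 CPM in bone marrow HSC-3, and Hspa5, the chaperone BiP, at 236 CPM against 252 CPM. Ddit3, which encodes CHOP, was lower (32.4 CPM against 54.9 CPM), as was the sensor gene Ern1 (15.1 CPM against 28.6 CPM). Asns, asparagine synthetase and an ATF4 target, was higher over all cells (28.5 CPM against 11.6 CPM) and within 1.5-fold over the 204 cells (16.6 CPM against 11.5 CPM). The authors' ER stress score had a median of 0.0992 in the selected spleen cells, with quartiles of 0.079 and 0.123. It was 0.0718 in bone marrow HSC-3 (quartiles 0.0542 and 0.0895) and 0.108 in the other spleen cells. Medians were 0.0996 against 0.0712 for the stem and progenitor label. They were 0.0932 against 0.073 for the megakaryocyte progenitor label and 0.0896 against 0.0719 for the multipotent label. Spleen medians were above marrow in HSC-1 (0.0884 against 0.0683) and HSC-2 (0.106 against 0.0853) as well. None of 20 interferon-stimulated genes reached 1.5-fold. Of 15 genes of homing and adhesion, 2 were higher and 2 lower (median -0.06). The higher ones were Itga2b, described above, and the integrin gene Itgb2 (log2 ratio 0.69). Both lower ones were receptors of cell traffic: Cxcr4, the receptor that holds progenitors in the marrow, was at 31.6 CPM against 49.4 CPM, and S1pr1, which guides exit along sphingosine phosphate, at 10.2 CPM against 23.6 CPM.

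Against the other 3431 spleen cells, the selected HSC-3 cells were set apart by histone and mitosis genes, as the way the cluster was drawn requires. Of 43 measured replication-dependent histone genes, 42 were higher, where 12.1% (1002 of 8295) of all measured genes were higher and 8.05% (668) were lower. Scaled by trimmed means, which moved the median of all genes by -0.11, the counts were 677 higher and 967 lower, and 42 histone genes were still higher, with a median of 1.86. The highest ratios were those of Neil3 (log2 ratio 3.20), Pimreg (2.85), a gene of dividing cells, Hist1h2ab (2.57) and Hist2h2bb (2.55). Of 30 mitosis genes, 21 were higher and none lower. Replication licensing and fork genes differed less, with 11 of 43 higher and a median of 0.34.

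The lowest ratios in that comparison belonged to mast cell and erythroid genes held by the other clusters. Cma1, a mast cell chymase, was at 13.3 CPM in the selected cells and 345 CPM in the other spleen cells, and Car1 at 278 CPM against 1982 CPM. Car1 is concentrated in spleen MEP: against spleen HSC-1 alone the log2 ratio of Car1 was 3.60. That ratio rests largely on the 11 erythroid-labelled cells, which held 85.8% of the Car1 UMIs of the selected cells. In the 204 cells of the narrower choice Car1 was at 46.8 CPM, against 22.0 CPM in spleen HSC-1. Of 26 erythroid genes, 20 were lower and 1 higher than in the pooled other spleen cells. Of 22 genes of Myc and ribosome biogenesis, 10 were lower and none higher.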

How the data were processed

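UMI counts per gene and cell of both libraries were deposited by the authors, as whole numbers with no normalization. Per the series design text reads were aligned to mm10 and counted with Cell Ranger 3.1.0; the submitters' processing notes name Seurat 3.1.5 and mm9, and the kit is given as version 3 and as version 3.1. The authors' filters on cells are not given in the sources used here. Cluster, reference labels and score columns were taken from the table that the authors deposited for the same cells; how each score was made is not stated. Symbols and gene coordinates are those of GENCODE M21, and 31011 identifiers had a symbol.

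Counts were summed per group and scaled to CPM, and the log2 ratio was taken with 1 CPM added to both sums. Ratios have exact intervals of 2 Poisson counts and shares Clopper-Pearson intervals, at 95%. Ratios without the added CPM were not formed where either sum held 3 or fewer UMIs. The log2 ratios and the calls of higher and lower genes had no such limit. Cells were thinned at random to 3700 UMIs, which left out 0 selected spleen cells and 4 bone marrow HSC-3 cells. Doublets were called per library with scrublet: 186 spleen cells (2.84%) were marked, 4 of them among the 232. In bone marrow 1 of 10088 cells was marked, so the caller did not work there, and no cell was removed for it. Tools were Python 3.11.15, numpy 2.4.6, scipy 1.17.1, pandas 2.3.3, scanpy 1.11.5 and, for the trimmed mean scaling only, edgeR 4.0.16. Sums, ratios and calls were tested on simulated data.

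The cells, the 27 gene lists and 13 marker lists were chosen with earlier results of these data known. Genes were named by a rule: the given markers, a set of stem, lineage, cycle and stress genes, the 12 highest and 12 lowest log2 ratios of each comparison among genes with at least 50 CPM, and the 2 highest and 2 lowest of each list. Gfi1b and Hist2h2be were named after their values were seen.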

Additional observations from a re-analysis of the deposited data

How the results depend on the processing

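The comparisons were repeated under 20 other settings, 4 of which were chosen after seeing the data (the 3 common labels alone, those labels weighted by their shares among the selected cells, without cells rich in MHC class II, and both limits together). No paired analysis was possible because each tissue has 1 library, and for the same reason no replicate could be left out. Leaving out cells with 3 or more immune marker UMIs gave no value, since none of the 232 selected cells was left. The same filter took out 1184 of 1231 bone marrow HSC-3 cells. Its 48 markers include Cst3, Flt3 and Nkg7, which bone marrow HSC-3 cells also carry, so this outcome is not read as immune-lineage RNA. Against bone marrow HSC-3 the counts of higher and lower genes were 109 and 152 at a mean of at least 50 CPM, 1077 and 1663 with no filter, 652 and 1112 in S phase cells, and 172 and 378 with labels so weighted. With the 3 labels alone 234 were higher, and with both limits 239. Against the other spleen cells they were 317 and 259 at 50 CPM, and 1796 and 1424 with no filter, and 1584 were lower than in spleen HSC-1. The remaining settings kept these counts within 1.5 times, but the genes called were not always the same. After thinning to equal depth, 249 of the 383 genes higher than in bone marrow HSC-3 were still higher. Of the 603 lower genes, 375 were still lower. Without the Trbc limit, 236 of the 383 and 410 of the 603 were called again.

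Single values changed sign in few cases. Against spleen HSC-1 alone, log2 ratios were 2.30 for Atp1b2, 3.60 for Car1, 2.86 for Ermap, 3.22 for Mt2, 1.56 for Prss50, 2.55 for Slc25a21 and 2.82 for Tcrg-C1, all of which are lower than in the pooled other spleen cells. Of these genes, Slc25a21 had only 3 UMIs in spleen HSC-1, and 0 in the selected spleen cells of the 3 common labels. In S phase cells the log2 ratios were 0.52 for Fcer1a, 1.29 for Mcpt4 and 0.25 for Tpsb2 against the other spleen cells. Against bone marrow HSC-3, without the Trbc limit Dntt came to 0.034 and the median of the lymphoid list to 0.048. Il7r came to -0.16 with the 3 labels and -0.15 with both limits, and Pf4 to 0.0607 after thinning. The causes were not tested.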
